A study of Homo sapiens with 6 samples.

Results

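Of the 60591 gene rows in the count table, 7 are described here: the CC chemokine ligand genes CCL2, CCL3, CCL4, CCL5, CCL20, CCL26 and CCL28. They were picked by name from the same counts after their levels in both groups had been seen, so their TPA against DMSO values stand as a description with no test. KYSE150, the only line used, is an established line grown from a human oesophageal squamous carcinoma. All cells were kept overnight without serum. The 3 TPA libraries came from cells then given TPA, a phorbol ester, at 10 ng/ml for 24 h, and the 3 DMSO libraries from cells labelled as given the solvent. The protocol text is the same for all 6 libraries and names TPA only, so the DMSO amount and time are not stated. Nothing in the labels states that cultures were separate, and the p-values given below therefore reflect the spread among these 6 libraries alone, which may be technical.

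CC chemokines are small secreted proteins with a pair of adjacent cysteines near the amino terminus. They bind G protein-coupled receptors on leukocytes and direct the movement of those cells along a gradient. CCL3, CCL4 and CCL5 are inflammatory chemokines that draw monocytes and T cells, and CCL3 and CCL5 bind CCR1. CCL2 draws monocytes through CCR2, CCL20 draws dendritic cells and lymphocytes through CCR6, CCL26 draws eosinophils through CCR3, and CCL28 is a mucosal ligand of CCR10 and CCR3. Phorbol esters activate protein kinase C, which signals to the transcription factors NF-kB and AP-1, and many chemokine genes are targets of these factors.

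The libraries held 27702329 to 33965547 counts. Levels are in CPM, the count relative to TMM-scaled library size, and 0 counts were compatible with at most 0.0915 to 0.109 CPM by library (3 counts, counting error only). All ratio intervals cover counting error only too. Squamous markers summed to 1692 to 3443 CPM in DMSO and 1306 to 2609 CPM in TPA, with the libraries numbered 1 lowest in each group. Leukocyte markers summed to 13.3 to 21.6 and 14.5 to 20.4 CPM, and these ranges overlapped. Of the 12 leukocyte markers 10 had a count, CD3D and MS4A1 were at 0 counts in all 6 libraries, and PTPRC, the pan-leukocyte marker, had 14 counts in all. The largest part of the sum in each library was CSF1R, with means of 10.6 CPM in DMSO and 10.1 CPM in TPA. CD68 averaged 1.89 and 4.42 CPM, and CD3E 2.96 and 1.17 CPM. Of those 12, 4 were tested and 0 called by edgeR (3 at an unadjusted p under 0.05), while DESeq2 called 1 higher and 1 lower. The edgeR fit with the replicate block also called 1 higher, ITGAM (log2 1.63, adjusted p = 0.0371), and 1 lower, CD3E (log2 -1.31, adjusted p = 0.0330). Fibroblast and endothelial markers summed to 8.33 to 14.7 CPM in DMSO and 3.92 to 12.7 CPM in TPA, with 7 of 8 present and DCN at 0. Most of that sum was COL1A1, with means of 9.35 CPM in DMSO and 7.54 CPM in TPA. The part of these markers in the results below was not tested. In bulk RNA, fewer cells with a transcript and less transcript per cell cannot be told apart.

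CCL3, which encodes a ligand of CCR1, had the highest level of the 7 genes after TPA and was near the detection floor in DMSO. It lies on chromosome 17 (GRCh38, 17:36088256-36090169, minus strand). CCL3 had 0.592, 0.122 and 0.130 CPM in DMSO libraries 1, 2 and 3, and 118, 139 and 152 CPM in TPA libraries 1, 2 and 3. The lowest TPA library was thus far above the highest DMSO library, and the groups did not overlap. The raw counts were 26 in DMSO and 12048 in TPA. The log2 fold change was 8.91 ± 0.63 (SE, edgeR, n = 3 each). By fitted log2 fold change CCL3 ranked 4 of the 21825 genes tested, with only 26 DMSO counts behind the value. As CCL3 was chosen with its levels known, the rank is a description. The highest DMSO value was that of DMSO 1, and the ratio of same-numbered libraries was 199 for number 1, 1137 for number 2 and 1167 for number 3. Without DMSO 1 the log2 fold change was 10.04, and without both libraries numbered 1 it was 10.28.

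The sequence just upstream of CCL3 is shown because CCL3 had the highest level in TPA. It is the RefSeq promoter stretch (GRCh38.p14, chr17:36090144-36090393, minus strand), from 250 bases before the start to the last base before it, and capitals mark the TATA box match.
CCL3: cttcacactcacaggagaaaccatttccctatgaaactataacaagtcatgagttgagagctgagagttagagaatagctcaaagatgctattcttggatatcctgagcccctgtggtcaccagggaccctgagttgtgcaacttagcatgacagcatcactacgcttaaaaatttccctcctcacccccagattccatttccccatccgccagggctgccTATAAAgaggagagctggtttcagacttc
The corresponding stretch of CCL20 (chr2:227813592-227813841, plus strand) is given for comparison, with matches to the kappaB consensus and to TATAAA in capitals.
CCL20: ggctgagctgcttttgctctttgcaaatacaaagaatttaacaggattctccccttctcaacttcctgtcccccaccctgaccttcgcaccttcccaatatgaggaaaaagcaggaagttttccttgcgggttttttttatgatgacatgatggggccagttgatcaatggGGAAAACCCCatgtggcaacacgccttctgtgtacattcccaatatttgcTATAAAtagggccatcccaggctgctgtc
Both carried TATAAA starting 29 bases before the start. Searched on both strands over 300 bases, TATAAA was present in 11.5% of 35116 RefSeq promoters. A match to the kappaB consensus, the binding sequence of NF-kB, stood 79 bases before the CCL20 start on the opposite strand, and such a match was present in 5.91% of promoters. The AP-1 sequence TGANTCA (7.71% of promoters) had no match in the CCL3 or CCL20 window. RefSeq promoter entries were matched for 4 of the 7 members, namely CCL3, CCL20, CCL26 and CCL28. The CCL26 and CCL28 windows held none of these motifs. A match is a description of letters and not of binding.

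CCL4, the neighbour of CCL3 that encodes a related inflammatory chemokine (17:36103590-36105621, plus strand), had no DMSO count. It had 0 counts in each DMSO library and 40, 46 and 56 counts in TPA libraries 1, 2 and 3, or 1.45, 1.55 and 1.83 CPM. Every TPA library was above every DMSO library, and the TPA mean of 1.61 CPM was at least 50.3-fold higher than the DMSO floor of 3 counts over the group. The TPA libraries were close to each other, and CCL4 kept nearly the same proportion to CCL3 in all of them. Per kb of exon, CCL3 stood 111, 122 and 113 times above CCL4 in TPA libraries 1, 2 and 3 (mean 115 ± 5.93, SD, n = 3).

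**Figure D1:**
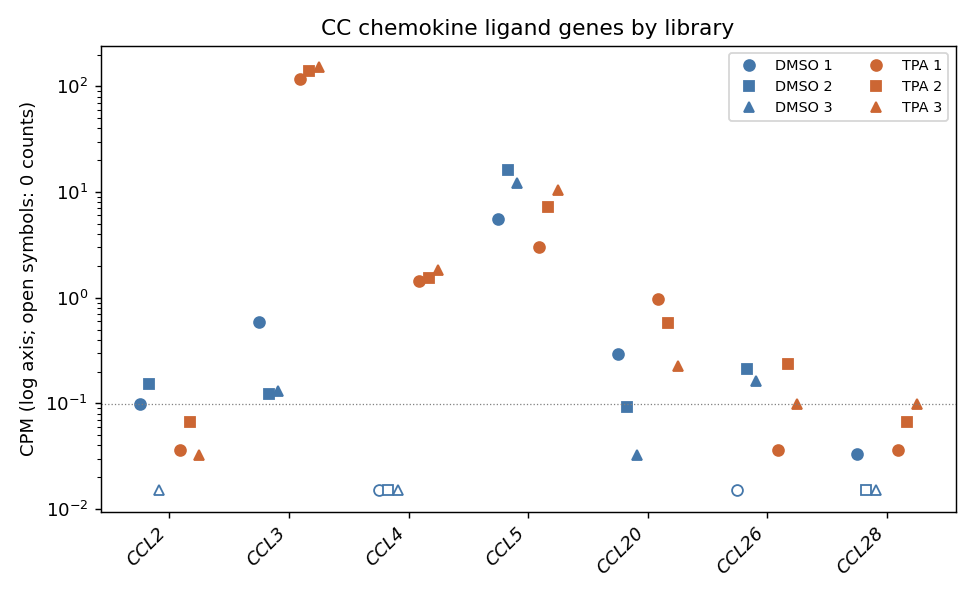
CPM of the 7 CC chemokine ligand genes in each library on a log axis, with DMSO in blue, TPA in orange, symbols for library numbers 1 to 3, open symbols for 0 counts and a dotted line at the mean floor of 3 counts. CCL3 lies between 118 and 152 CPM in TPA and below 0.6 CPM in DMSO, and CCL4 has counts in TPA libraries only.

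CCL3 and CCL4 each have a near-identical copy on chromosome 17. The coding sequence of CCL3 (279 bases) was 95.7% the same as that of CCL3L1, with 9 mismatches and 3 gap columns, and that of CCL4 was 97.5% the same as that of CCL4L2. Such differing bases, and any in the untranslated parts, which are not printed, let a read be assigned to the gene or its copy. The coding sequences of CCL3 and CCL3L1 are printed with the differing bases in capitals (GENCODE 29, GRCh38, minus strand, coding bases within chr17:36088672-36090058 for CCL3 and chr17:36195286-36196673 for CCL3L1, with introns left out).
CCL3: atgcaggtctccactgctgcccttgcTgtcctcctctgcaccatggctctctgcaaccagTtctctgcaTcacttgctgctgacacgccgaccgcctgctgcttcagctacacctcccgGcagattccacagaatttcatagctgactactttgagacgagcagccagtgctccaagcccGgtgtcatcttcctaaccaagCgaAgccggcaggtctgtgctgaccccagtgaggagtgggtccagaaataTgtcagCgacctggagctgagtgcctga
CCL3L1: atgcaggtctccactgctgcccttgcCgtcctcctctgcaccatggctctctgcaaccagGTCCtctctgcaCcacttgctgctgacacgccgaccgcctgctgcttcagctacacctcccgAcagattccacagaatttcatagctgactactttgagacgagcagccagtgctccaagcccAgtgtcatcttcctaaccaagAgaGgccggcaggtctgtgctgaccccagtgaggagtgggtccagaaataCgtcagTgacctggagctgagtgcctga
Of the 729 windows of 50 bases in the CCL3 transcript, 72 (9.88%) occurred unchanged in the CCL3L1 transcript, and 16.8% of the CCL4 windows occurred in CCL4L2. By contrast, CCL3 and CCL4 were 67.6% the same in coding sequence, CCL3 and CCL5 60%, and no window of 50 bases in CCL3 occurred in the transcript of CCL4 or of CCL5.

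CCL3L1, which is not a member, rose with TPA. It had 2, 0 and 0 counts in DMSO libraries 1, 2 and 3 and 16, 19 and 19 counts in TPA libraries 1, 2 and 3, a ratio of 28.8 (exact 95% counting interval 7.59 to 244). CCL3L1 passed the filter on low counts only through its TPA libraries, so its test is given as a description. The edgeR quasi-likelihood test gave an adjusted p of 0.0498, just under the 0.05 threshold. That call was lost without any 1 of DMSO 1, DMSO 2, DMSO 3, TPA 2 and TPA 3, and with scaling by library size alone. Leaving out those libraries also cut the calls over all genes. The genes called higher were 101 without DMSO 1, 24 without TPA 2, 2 without TPA 3 and 0 without DMSO 2 or DMSO 3. In TPA, CCL3L1 held 54 of 12102 counts assigned to CCL3 or to it, or 0.446% (exact 95% interval 0.335% to 0.582%). In DMSO it held 2 of 28. CCL4L2 had no DMSO count and 6 counts in TPA, 4.05% (exact 95% interval 1.5% to 8.61%) of those assigned to CCL4 or to it. How reads that match both copies were counted is not given in the sources used here, so the levels of all 4 genes are uncertain. With the copies summed into CCL3, its log2 fold change was 8.81.

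CCL5, a ligand of CCR1 and CCR3, was the main CC ligand transcript of the DMSO cells. It lies 209 kb from CCL3 on chromosome 17 (17:35871491-35880793, minus strand). CCL5 had 5.60, 16.1 and 12.2 CPM in DMSO libraries 1, 2 and 3, and 3.05, 7.23 and 10.4 CPM in TPA libraries 1, 2 and 3. The groups overlapped, because TPA 2 and TPA 3 were above DMSO 1, while each TPA library was below the DMSO library of its own number. Mean levels were 11.3 ± 5.31 and 6.90 ± 3.71 CPM (SD, n = 3 each), and the fitted log2 fold change was -0.71 ± 0.52 (SE). The number 1 library was the lowest in each group. The ratio of TPA to DMSO was 0.544, 0.449 and 0.859 for numbers 1, 2 and 3. Without DMSO 2 the log2 fold change was -0.35, without TPA 1 it was -0.24, and without TPA 3 it was -1.12. Removing each library's trend on GC content, with the library number as a block, gave -1.12. CCL5 was called lower in that fit and in the fit without both libraries numbered 1 (-0.52), and in no other fit run. Those fits called many genes lower, 2405 of 21024 tested and 7475 of 22421 tested. Scaling by library size alone gave -0.98 and moved the median of all genes from -0.11 to -0.36. An antisense gene, AC015849.1, overlaps CCL5 and had 1 to 9 counts in 5 libraries and 0 in TPA 3.

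In raw counts, not scaled for length, the make-up of the ligand pool differed between the groups. CCL5 held 92.8% ± 7.16 of the member counts in DMSO and 4.55% ± 1.96 in TPA (SD, n = 3 each). CCL3 held 3.58% ± 4.66 and 93.7% ± 1.62. The summed level of the 7 genes was 6.62, 16.7 and 12.5 CPM in DMSO libraries 1, 2 and 3 and 124, 148 and 165 CPM in TPA libraries 1, 2 and 3.

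CCL20, the ligand of CCR6, was low and did not pass the filter on low counts with all 6 libraries. On chromosome 2 (2:227805739-227817564, plus strand), it had 9, 3 and 1 counts in DMSO libraries 1, 2 and 3 and 27, 17 and 7 counts in TPA libraries 1, 2 and 3. In CPM these were 0.296, 0.0915 and 0.0326 against 0.979, 0.571 and 0.228. The groups overlapped, because DMSO 1 was above TPA 3, but each TPA library was above the DMSO library of its own number, by 3.30, 6.24 and 7.01 times. Over the groups the ratio of summed counts was 4.18 (exact 95% counting interval 2.24 to 8.39). The number 1 library was the highest in each group, the opposite of CCL5. Where another setting let CCL20 into the fit, it was not called. Its log2 fold change was 2.12 with no filter, 3.16 without DMSO 1, 1.83 without DMSO 2, 1.60 without DMSO 3 and 2.45 without TPA 3.

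CCL2, CCL26 and CCL28 were at or near the floor in both groups. CCL2, the monocyte attractant (17:34255218-34257203, plus strand), had 3, 5 and 0 counts in DMSO and 1, 2 and 1 in TPA, a ratio of 0.533 (exact 95% counting interval 0.118 to 1.99). CCL26, an eosinophil attractant (7:75769533-75789896, minus strand), had 0, 7 and 5 counts in DMSO and 1, 7 and 3 in TPA, a ratio of 0.978 (0.391 to 2.42). CCL28, the mucosal ligand (5:43376645-43412391, minus strand), had 1 count in DMSO and 1, 2 and 3 in TPA libraries 1, 2 and 3, a ratio of 6.40 (0.776 to 294). All 3 intervals included a ratio of no difference, and none was detectable at this depth. For CCL28 each TPA library lay above each DMSO library, though TPA 1 and DMSO 1 both had 1 count.

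Per length, the order of the members changed with TPA. In DMSO, CCL5 stood first at 7.46 ± 3.51 CPM per kb of exon (SD, n = 3 each here), followed by CCL3 (0.189 ± 0.180), CCL26 (0.178 ± 0.158), CCL20 (0.0879 ± 0.0868), CCL2 (0.0422 ± 0.0390), CCL28 (0.0024 ± 0.0042) and CCL4 at 0. Only CCL5 differed from its neighbour by more than the sum of both SDs. In TPA, CCL3 stood first at 91.2 ± 11.4 CPM per kb, then CCL5 (4.56 ± 2.45), CCL4 (0.791 ± 0.0962), CCL20 (0.372 ± 0.236), CCL26 (0.174 ± 0.144), CCL2 (0.0228 ± 0.0096) and CCL28 (0.0148 ± 0.0068). By the same measure CCL3, CCL5 and CCL4 were each separate from the next gene, whereas CCL20, CCL26 and CCL2 were not.

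Of the 7 members, 3 passed the low-count filter. CCL3 and CCL4 passed only through their TPA libraries, and CCL5 passed in both groups. Of these, 2 were called higher and 0 lower at an adjusted p under 0.05, against 0.861% of all tested genes called higher (188 genes) and 0.394% called lower (86 genes). Scaling by library size alone gave 126 higher and 219 lower over all genes. With the library number as a block the same 2 were called, and 4.58% of genes were called higher and 6.52% lower. Among tested members, the TPA libraries were all above the DMSO libraries for CCL3 and CCL4, against 14.3% of tested genes, and all below for 0, against 15.2%. As the members were chosen with this comparison known, nothing is read from these counts. Without DMSO 2 or without DMSO 3 none of the members was called, and over all genes 0 were (2612 and 2745 at an unadjusted p under 0.05). Without TPA 2 or TPA 3 only CCL3 was called. Those fits called 24 genes higher and 1 lower without TPA 2, and 2 higher and 0 lower without TPA 3. Without both libraries numbered 1, all 3 tested members were called, 2 higher and 1 lower. That fit called 7216 genes higher and 7475 lower of 22421 tested.

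**Figure D2:**
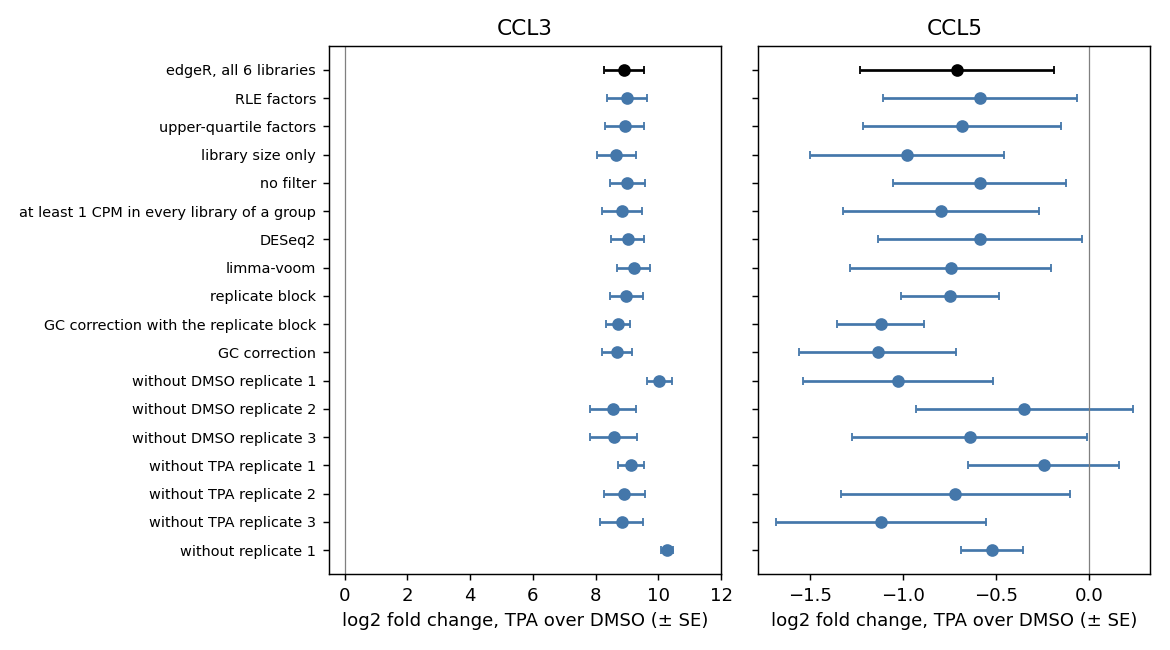
Fitted log2 fold change of CCL3 and CCL5 (x axes, bars are SE) from the fit to all 6 libraries (black) and from each alternative fit (blue, named on the y axis). CCL3 lies between 8.56 and 10.28 in every fit shown, and CCL5 between -1.14 and -0.24.

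The other CC ligand genes had few counts or none in either group. Of 17 such genes, 8 had no count in any library, 9 had at least 1 and 2 had at least 10 in all. CCL22, a ligand of CCR4 that attracts regulatory T cells, had 0.263, 0.397 and 0.326 CPM in DMSO libraries 1, 2 and 3 and 0.0363, 0.504 and 0.946 CPM in TPA libraries 1, 2 and 3. It was the only one of them tested and was not called (log2 0.60 ± 0.82, edgeR adjusted p = 0.694; p under 0.05 unadjusted in 0 of 1). DESeq2 and limma-voom did not call it either. TPA 1 was the lowest library, and without it CCL22 was called higher (log2 1.24). The fit without TPA 1 called 5577 genes higher and 6297 lower of 22633 tested. CCL24, like CCL26 a ligand of CCR3 on eosinophils and its neighbour on chromosome 7, had 0.0329, 0.244 and 0.521 CPM in DMSO and 0.0363, 0.605 and 0.130 CPM in TPA. Its groups overlapped.

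The receptors of these ligands were low as well. Of 15 CC chemokine receptor, atypical receptor and related genes, 3 had no count at all (CCR2, CCR6 and ACKR1), and 4 passed the filter. None of the 4 was called by edgeR, DESeq2 or limma-voom, and 0 had an unadjusted p under 0.05. For CCR1, a receptor of CCL3 and CCL5, levels were 0.124 ± 0.157 CPM with DMSO and 0.0895 ± 0.0496 CPM with TPA (SD, n = 3 each).

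CCR3, a receptor of CCL5, CCL26 and CCL28, had 1.32, 1.25 and 2.05 CPM in DMSO libraries 1, 2 and 3 and 0.471, 1.11 and 1.04 CPM in TPA libraries 1, 2 and 3. The groups did not overlap, but the difference did not pass (log2 -0.81 ± 0.42, edgeR adjusted p = 0.310). CCRL2, an atypical receptor that binds the chemoattractant chemerin, had 0.395, 0.122 and 0 CPM in DMSO and 0.616, 0.706 and 0.554 CPM in TPA. These groups did not overlap either, and the difference did not pass (log2 1.84 ± 0.84, adjusted p = 0.253 in edgeR). With 12, 4 and 0 counts in DMSO, CCRL2 passed the low-count filter through its TPA libraries and not through DMSO. Its test and its call below are therefore descriptions. CCR10, a receptor of CCL28, had 0.530 ± 0.125 and 0.599 ± 0.426 CPM (adjusted p = 0.890, edgeR). ACKR4, a scavenger of homeostatic chemokines, had 2.30, 1.77 and 1.63 CPM in DMSO and 2.68, 0.101 and 0.587 CPM in TPA (log2 -0.77 ± 0.87, edgeR adjusted p = 0.637). Its TPA 1 value was the highest of all 6 libraries, and without TPA 1 it was called lower (log2 -2.33). The fit without TPA 1 called 5577 genes higher and 6297 lower of 22633 tested. Without both libraries numbered 1, ACKR4 and CCR7 were called lower (log2 -2.13 and -1.90) and CCRL2 higher (3.39). That fit called 7216 genes higher and 7475 lower of 22421 tested, so nothing particular to the receptors is read from these calls. In it, CCR7 passed the low-count filter only through its DMSO libraries.

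The other receptors with at least 10 counts did not pass the filter with all 6 libraries, and with no filter none of them was called by edgeR (adjusted p = 0.273 for CCR4, 0.306 for CCR7, 0.433 for CCR9 and 0.967 for ACKR2). Mean levels of CCR7, the lymph node homing receptor, were 0.443 ± 0.331 CPM with DMSO and 0.0998 ± 0.101 CPM with TPA. CCR9 had 0.301 ± 0.228 and 0.106 ± 0.0983 CPM, CCR4 0.0210 ± 0.0183 and 0.138 ± 0.0755 CPM, and ACKR2, a scavenger of inflammatory CC ligands, 0.333 ± 0.192 and 0.323 ± 0.235 CPM (SD, n = 3 each). In CCR4 alone of these the groups did not overlap, with 2 counts in DMSO and 12 in TPA. CCR7 was lowest in library 1 of each group, with 2 counts in DMSO 1 and 0 in TPA 1.

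**Figure D3:**
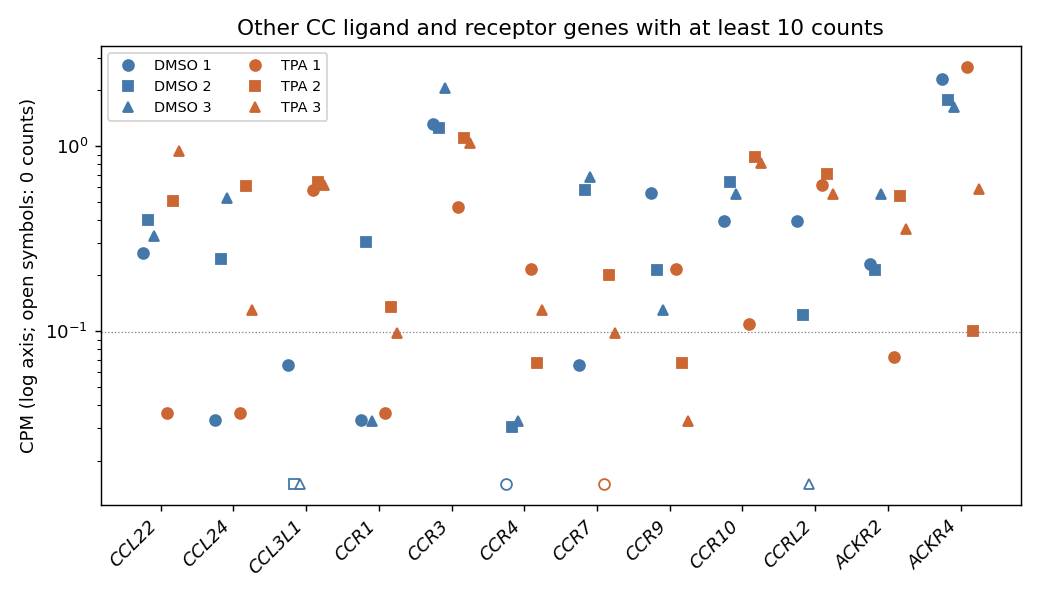
CPM of the other CC ligand, copy and receptor genes with at least 10 counts in total, by library on a log axis, with DMSO in blue, TPA in orange, open symbols for 0 counts and a dotted line at the mean floor of 3 counts. Only CCR3 and ACKR4 exceed 1 CPM in a DMSO library, and CCL3L1 is the 1 gene shown that passed the test.

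Among the transcription factors and inhibitors that act on chemokine genes, those that passed were higher with TPA. Among 21 tested, 4 passed and rose, none fell (0) and 17 did not pass. Their median log2 fold change was 1.10, against -0.11 over all genes. As the list was chosen with earlier results of these data known, nothing is read from that difference or from the counts of calls. Of all genes tested, 0.861% were called higher and 0.394% lower. NFKBIA, an inhibitor of NF-kB and also its target, rose from 59.9 ± 6.49 to 205 ± 45.1 CPM (SD, n = 3 each; log2 1.77 ± 0.24, edgeR adjusted p = 0.0321). NFKBIE, a related inhibitor, rose from 7.01 ± 0.826 to 24.8 ± 6.34 CPM (adjusted p = 0.0394, edgeR). NFKB2, which encodes an NF-kB subunit precursor, rose from 95.6 ± 33.0 to 349 ± 48.1 CPM (edgeR adjusted p = 0.0402). The other riser was the AP-1 subunit gene JUNB, named because it completes the count (log2 1.29 ± 0.23, edgeR adjusted p = 0.0498). With the replicate block 13 rose and 0 fell, against 4.58% higher and 6.52% lower of all genes. The GC correction gave 6 higher and 2 lower, and with the block 13 and 2. Over all genes it gave 749 and 717, and with the block 2070 and 2405, of 21024 tested. Without any 1 of DMSO 2, DMSO 3, TPA 2 and TPA 3 none was called, and without TPA 1 16 were higher and 1 lower. Over all genes, 0 were called without DMSO 2 or without DMSO 3. The fit without TPA 2 called 24 higher and 1 lower, and that without TPA 3 called 2 higher and 0 lower. Without TPA 1, 5577 were called higher and 6297 lower of 22633 tested. STAT6, the factor through which interleukins 4 and 13 induce CCL26, had 109 ± 4.70 and 225 ± 38.8 CPM (log2 1.04 ± 0.21, adjusted p = 0.0625 in edgeR), was called with the block (adjusted p = 0.0232), and was named after its values were seen.

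Cytokines known to induce CC ligands were present in part. Of 10 listed, IL17A, IFNG and IL22 had no count, and 3 were tested, of which 2 rose and 1 did not pass. Of all genes tested, 0.861% were called higher and 0.394% lower, and with the replicate block 4.58% and 6.52%. IL1B rose from 30.1 ± 4.09 to 187 ± 55.3 CPM (log2 2.63 ± 0.28, edgeR adjusted p = 0.0250). TNF rose from 0.0545 ± 0.0498 to 0.947 ± 0.199 CPM (log2 4.05 ± 0.69, edgeR adjusted p = 0.0484). It had 2, 0 and 3 counts in DMSO and 20, 30 and 34 in TPA. TNF thus passed the low-count filter only through its TPA libraries, and its call is a description. IL1A had 48.5 ± 37.6 and 213 ± 194 CPM and did not pass (edgeR adjusted p = 0.158), but was called with the replicate block (adjusted p = 0.00101), as were the other two. IL4 and IL13 had 14 and 13 counts in all. Without DMSO 2, without DMSO 3 or without TPA 3 none was called, and without DMSO 1 or TPA 2 only 1 was. Those fits also called fewer genes of all kinds. They called 0 genes without DMSO 2 or DMSO 3, and 2 higher and 0 lower without TPA 3. Without TPA 2 they were 24 higher and 1 lower, and without DMSO 1 101 higher and 38 lower.

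Factors that act on AU-rich or stem-loop elements in chemokine mRNAs showed 1 rise among 8 tested. The share of all genes called higher was 0.861%, and 4.58% with the replicate block. ZC3H12A, an endonuclease first described as induced by CCL2, rose from 15.9 ± 1.08 to 43.5 ± 2.19 CPM (SD, n = 3 each; log2 1.45 ± 0.20, edgeR adjusted p = 0.0342). ZFP36, which marks such mRNAs for decay, had 66.2 ± 7.96 and 108 ± 7.12 CPM (adjusted p = 0.102, edgeR). Its relative ZFP36L1 had 216 ± 89.6 and 485 ± 136 CPM (adjusted p = 0.108, edgeR) and was called with the block (adjusted p = 0.0133). The block thus called 2 of the 8. Leaving out any library other than TPA 1 left no call, and without TPA 1 there were 7 (6 higher and 1 lower). Over all genes the fit without TPA 1 called 5577 higher and 6297 lower of 22633 tested. The fits without DMSO 1, TPA 2 and TPA 3 called 101, 24 and 2 genes higher, and those without DMSO 2 or DMSO 3 called 0.

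Heparan sulfate proteoglycans hold secreted chemokines at the cell surface. None of 5 tested was called by edgeR, with 1 at an unadjusted p under 0.05. That gene, the syndecan SDC4, had 422 ± 48.7 and 909 ± 232 CPM (log2 1.11 ± 0.24, edgeR adjusted p = 0.0676). It was called higher by DESeq2, with the replicate block (adjusted p = 0.0317 in edgeR), with the GC correction and without TPA 1, but not by limma-voom. HSPG2 had 129 ± 47.2 and 103 ± 44.0 CPM and GPC1 115 ± 43.0 and 93.4 ± 49.9 CPM, and neither passed, but both were called lower with the GC correction and block together (log2 -0.71 and -0.75).

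On chromosome 17, most tested genes around CCL3 were not called. Within 250 kb of CCL3, 8 other genes were tested, of which CCL4 and CCL3L1 were called higher and 0 lower. Both had passed the low-count filter only through their TPA libraries. The replicate block added the antisense gene AC243829.2. AC243829.2, whose start lies 26.0 kb from that of CCL3, averaged 0.172 CPM with DMSO and 0.787 CPM with TPA (log2 2.17 ± 0.50, edgeR adjusted p = 0.0704, and 0.0292 with the block). At that DMSO level it could not have passed the low-count filter through its DMSO libraries, so its call is a description too. TAF15, a broadly expressed RNA-binding protein gene, had 110 and 107 CPM (log2 -0.04 ± 0.21, edgeR adjusted p = 0.920). HEATR9, which lies beside CCL5, had 0.563 and 0.591 CPM (log2 0.07 ± 0.34). The antisense gene that overlaps CCL3, AC243829.4, had 0 counts in every library. These neighbours were named after their values were seen.

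**Figure D4:**
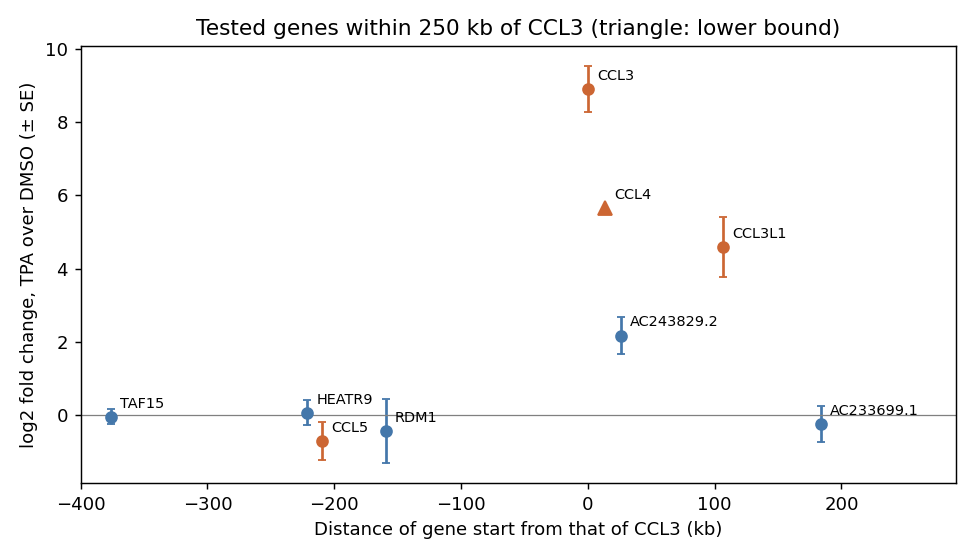
Fitted log2 fold change (y axis, bars are SE) of the tested genes within 250 kb of CCL3, against the distance of their start from that of CCL3 in kb (x axis), with CC ligand genes in orange, other genes in blue and CCL4 as a triangle at its lower bound. CCL3, CCL4 and CCL3L1 stand above 4, while CCL5 and TAF15 lie at -0.71 and -0.04.

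Genes whose levels ran most like those of each tested member were found by the root mean square (RMS) difference between centred log2 CPM values over the 6 libraries, among 13970 genes with an average log2 CPM of at least 0. For CCL3 these were CSF2 (RMS difference 0.81 log2 units), a colony-stimulating factor gene, IL1R2 (0.98), a decoy receptor gene, and SERPINB2 (0.995), a protease inhibitor gene. Each of them was far lower in every DMSO library than in any TPA library, as CCL3 was. For CCL4 they were the gelatinase gene MMP9 (0.26), the antitrypsin gene SERPINA1 (0.26) and the cornified envelope gene SPRR2D (0.36), where the values at 0 counts depend on the prior count of 2. For CCL5 they were C1S (0.09), ZNF862 (0.15) and HOGA1 (0.15). C1S, which encodes a protease of the complement system, had 2.80, 6.71 and 5.41 CPM in DMSO libraries 1, 2 and 3 and 1.41, 3.16 and 4.73 CPM in TPA libraries 1, 2 and 3. As for CCL5, DMSO 2 was its highest library and TPA 1 its lowest. By Pearson correlation instead, 0 of the 3 genes were the same for CCL3 and for CCL4, and 1, C1S, for CCL5. With 6 libraries these likenesses are descriptions, and they share the same libraries and scaling.

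**Figure D5:**
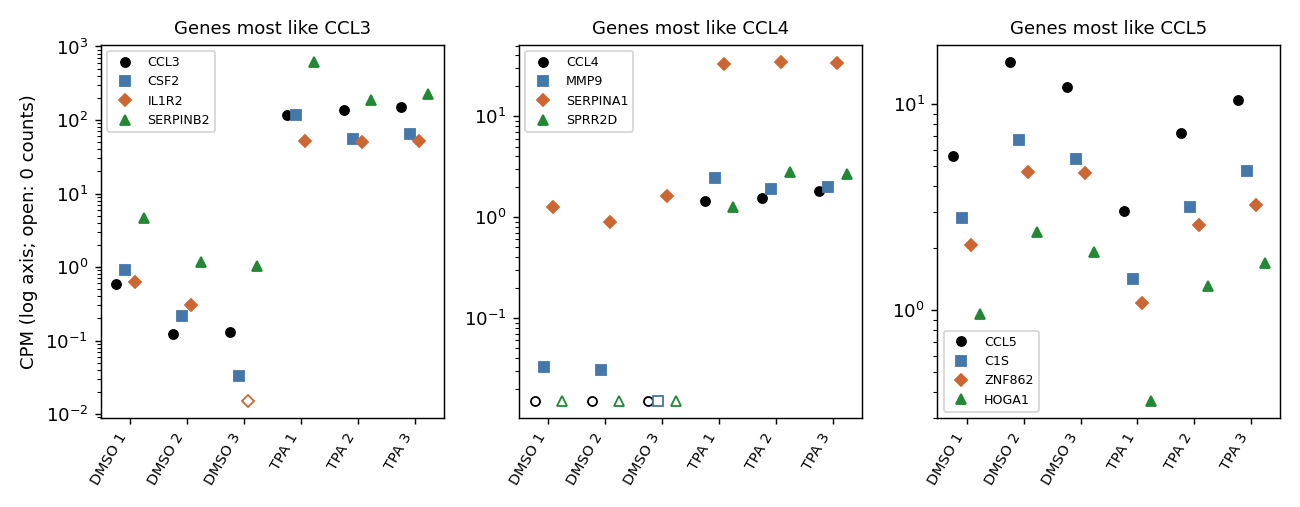
CPM by library (log axis, open symbols for 0 counts) of CCL3, CCL4 and CCL5 (black circles) and of the 3 genes most like each. The CCL3 and CCL4 panels show a step between DMSO and TPA, while in the CCL5 panel all 4 genes are lowest in TPA 1 and highest in DMSO 2.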

How the data were processed

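Total RNA of KYSE150 cells (3 TPA and 3 DMSO libraries) was sequenced, and the authors deposited unnormalized whole read counts per gene symbol. Per the submitters' processing notes, the tools were the aligner HISAT2 2.1.0 and the counter HTSeq 0.12.4, and the builds hg38 and GRCh38. Annotation release, strand setting and treatment of multiply aligned reads: not given in the sources used here. All sample columns were matched to labels (0 left over), and 0 rows lacked a gene name. Each control column was taken as the DMSO sample with its number. TPA was compared with DMSO by edgeR 4.0.16 (R 4.3.3; quasi-likelihood F-test, TMM, filterByExpr, Benjamini-Hochberg at 0.05), and the SE is the estimate over the square root of F. The fits were tested on simulated data. DESeq2 1.42.0, limma-voom (limma 3.58.1), other scalings and filters, a replicate block, a GC correction (robust spline, 5 degrees of freedom) and leaving out libraries were the alternatives.

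The members and gene lists were chosen with earlier results of these data known. The named genes are all members, other CC ligands, copies and receptors with at least 10 counts, the 3 genes of each other list with the lowest p, and the 3 genes most like each tested member, leaving out clone and locus names. One listed receptor is not reported here by name. Same-numbered libraries deviated from their group means together (correlations of 0.65, 0.43 and 0.61 across genes), so libraries sharing a number were treated as pairs in the block. This rests on the data alone, since no label names a shared culture, and the crossed pairs DMSO 2 and TPA 3 (0.48) and DMSO 3 and TPA 2 (0.61) were as high. Exon length, transcript GC content and positions came from GENCODE 29 on GRCh38 (37725 symbols matched by current name, 18800 by that release's, 4066 by neither or more than 1), and promoters from RefSeq (GRCh38.p14).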

Additional observations from a re-analysis of the deposited data

How the results depend on the processing

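The direction of CCL3, CCL4 and CCL5 was the same under every alternative run, with log2 fold changes of 8.56 to 10.28 for CCL3 and -1.14 to -0.24 for CCL5. The fitted value of CCL4 (6.66 to 8.79) depends on the prior count, since DMSO was at 0. The levels of CCL2, CCL26 and CCL28 are limited by depth.

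Over all genes the alternatives moved the counts of calls as follows, with 188 higher and 86 lower as the values reported. No filter gave 429 and 202, DESeq2 1702 and 915, the replicate block 1000 and 1423, the GC correction 749 and 717, and the GC correction with the block 2070 and 2405. Library size alone gave 219 lower and limma-voom 130 lower. Leaving out libraries gave 0 to 7216 higher and 0 to 7475 lower.

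The members called (2) ranged from 0 to 3 with libraries left out. For the other CC ligands and copies (1 called) library size alone and the filter at 1 CPM gave 0, and leaving out libraries 0 to 2. For the receptors (0 called) leaving out libraries gave 0 to 3. For the transcription factors (4 called) no filter gave 10, DESeq2 13, limma-voom 8, the replicate block 13, the GC correction 8 (6 higher and 2 lower) and that with the block 15 (13 and 2), and leaving out libraries 0 to 19. For the decay factors (1 called) DESeq2 gave 3, the replicate block 2, the GC correction 2 and that with the block 3, and leaving out libraries 0 to 7. For the inducing cytokines (2 called) library size alone gave 1, the filter at 1 CPM 1, the replicate block 3, and leaving out libraries 0 to 3. For the heparan sulfate carriers (0 called) DESeq2 gave 1, the replicate block 1, the GC correction 1 and that with the block 3, of which 2 lower, and leaving out libraries 0 to 3.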
